A study of Homo sapiens with 12 samples.

Results

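GMDS and 9 further genes of protein fucosylation were followed across HCT116 cells with and without MTHFD2. GMDS was chosen by its counts, which were close to 0 in every knock-out library, so its genotype values are given here as a description, without a test. The others were taken by pathway: the GDP-fucose enzymes GFUS, FCSK and FPGT, the carrier SLC35C1, and the fucosyltransferases FUT4, FUT8, FUT11, POFUT1 and POFUT2. These 10 genes, of 60648 in the count table, all passed the filter on low counts, as did 18289 genes in all. HCT116 is a line from a human colon carcinoma, and MTHFD2 is an enzyme of folate metabolism. The 12 poly-A RNA-seq libraries formed 4 groups of 3: initial and final MTHFD2 wild type (WT), and initial and final MTHFD2 knock-out (KO). The initial harvest directly followed the making of the knock-out by CRISPR-Cas9, and the final harvest came after 2 months of culture. All knock-out libraries come from 1 isolated clone, so the loss of MTHFD2 and whatever else sets that clone apart cannot be told apart.

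Fucose is added to glycans from the activated sugar GDP-fucose. Cells make it de novo from GDP-mannose through GMDS and then GFUS, or salvage free fucose through FCSK and FPGT, and SLC35C1 carries it into the Golgi. Several FUT enzymes attach it to N-glycans and to Lewis-type antigens, while POFUT1 and POFUT2 place O-fucose on EGF-like and thrombospondin repeats in the endoplasmic reticulum. As background, HCT116 has been described as carrying an internal deletion in GMDS that leaves it with little fucosylated glycan unless fucose is supplied. Gene-level counts do not show which exons were read, so they say nothing of that deletion.

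Libraries held 38597809 to 40017561 counts, and 27536 to 29015 genes had at least 1 count. MTHFD2, the targeted gene, had 319 to 457 CPM (each gene's share of the library's counts, scaled by TMM factors and in the usual CPM unit) in the 6 WT libraries and 123 to 155 in the 6 KO libraries, with no overlap. Of 8 markers of colon epithelium, 1 (CDX1) stood at 3 counts or fewer in every library, and the markers summed to 2624 to 3232 CPM in the initial WT, 3061 to 3202 in the final WT, 2466 to 2705 in the initial KO and 2214 to 2588 in the final KO. The epithelial sums of the KO were thus at the lower end of the WT's or below it. Of the markers of other cells, the blood genes PTPRC and CD3E, the endothelial gene CDH5 and the fibroblast genes COL1A2, DCN and LUM were at that floor throughout. The fibroblast sum, nearly all of it COL1A1, was 56.2 to 78.1 CPM in the WT and 36.5 to 58.0 in the KO. The blood sum, in the KO mostly LYZ, was 0.415 to 0.814 CPM in the WT and 1.28 to 2.25 in the KO. The endothelial sum was 1.22 to 2.22 over all libraries. Of 6 tested epithelial markers, 2 were called lower in the KO initially and 4 finally, beside 11.3% and 10.2% of all genes tested. The 2 tested fibroblast markers, COL1A1 and COL3A1, were called lower initially, and COL1A1 also finally. Of 2 tested blood markers, LYZ was called higher at both harvests, beside 8.55% and 8.38% of all genes tested, and CD14 was not called. Of 2 tested endothelial markers, 0 were called. The part of these marker differences in the results was not tested.

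GMDS (ENSG00000112699.11, GRCh38 chromosome 6, 1623806 to 2245605, minus strand) encodes GDP-mannose 4,6-dehydratase, the entry enzyme of the de novo route. The 3 initial WT libraries held 616, 733 and 721 GMDS counts, and the 3 final WT libraries 585, 767 and 732. In the KO clone the counts were 0, 0 and 1 at the initial harvest and 2, 0 and 0 at the final harvest. The genotypes were thus far apart in every library, and no KO library rose above the floor of 3 counts. On the CPM scale the WT had 17.1 ± 1.75 (SD, n = 3) initially and 18.3 ± 2.14 finally. Set against that floor of 3 counts per library, GMDS was at least 225-fold lower in the KO at the initial harvest and at least 241-fold lower at the final harvest. These bounds divide the WT mean by the floor and do not include the spread between the WT libraries. That spread gives the bounds an SD of 23.1 initially and 28.2 finally. In bulk RNA, fewer cells with the transcript and less of it per cell cannot be told apart. Within the WT, where the choice of GMDS used nothing, its ranges at the 2 harvests overlapped and the difference did not pass (log2 fold change 0.10, SE 0.135, adjusted p = 0.749, edgeR's quasi-likelihood test with Benjamini-Hochberg adjustment over all genes tested).

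GMDS was 1 of 40 genes that stood at 3 counts or fewer in all 6 KO libraries and above that in all 6 WT libraries, and it had the highest WT mean of them, 17.7 CPM. There were 33 genes with the opposite pattern. GMDS-DT, the divergent long noncoding RNA that starts beside GMDS on the other strand, was the fifth of the 40.

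The start region that GMDS and GMDS-DT share is shown because both transcripts were missing together in the KO. The run below is the 250 bases before the GMDS start in the RefSeq annotation of GRCh38.p14, chr6:2245606-2245855, on the minus strand. It is written 5′ to 3′ toward GMDS, with matches to the GC box GGGCGG on either strand in capitals.
GMDS promoter: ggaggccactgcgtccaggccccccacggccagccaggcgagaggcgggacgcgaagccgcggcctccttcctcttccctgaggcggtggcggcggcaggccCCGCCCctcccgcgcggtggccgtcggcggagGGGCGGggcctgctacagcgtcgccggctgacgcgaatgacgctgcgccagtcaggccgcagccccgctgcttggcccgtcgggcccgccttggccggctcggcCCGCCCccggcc
The GC boxes begin at bases 103, 135 and 239 of this run, the middle one on the strand of GMDS. GMDS-DT starts 113 bases from the GMDS start, which is base 138 of the run, inside the middle box. At least as many GC boxes were found in 13.9% of 35116 promoters of the same length, and any in 42.6%. The run has 80% G and C, against a median of 58% over those promoters, and 35 CpG dinucleotides, against a median of 11. No match to the CCAAT box (CCAAT, in 32% of promoters), the TATA box (TATAAA, in 10.7%), the E-box CACGTG (in 6.34%), the CRE TGACGTCA (in 1.65%) or the C/EBP-ATF element TGATGNAA (in 3.14%) was in it, all searched on both strands. These matches describe letters only, and factor binding was not measured.

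GMDS-DT (ENSG00000250903.9, chromosome 6, 2245718 to 2525976, plus strand) had 72, 55 and 94 counts in the initial WT and 57, 83 and 59 in the final WT. It had 0, 0 and 1 counts in the initial KO and none in the final KO. The bound on its difference was at least 24.1-fold lower at the initial and at least 23.0-fold lower at the final harvest. The annotated spans of GMDS and GMDS-DT do not overlap. The antisense gene inside GMDS, ENSG00000285603, had 0 counts in every library.

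Most neighbours of GMDS were also lower in the KO, though less deeply. Of 21 tested genes whose start coordinate in the table (the lower one, whatever the strand) lies within 1 Mb of an end of GMDS, 19 were called lower at the initial harvest and 19 at the final harvest by edgeR's quasi-likelihood test, against 11.3% and 10.2% of all genes tested. None was called higher, against 8.55% and 8.38% of all genes tested. Their median log2 fold change was -1.19 initially and -1.40 finally, while the median over all genes tested was 0.00 at both harvests. Setting the neighbours with a group at the floor to their bounds leaves both medians as they are. Among the genes called lower are FOXQ1, GMDS-DT and HTATSF1P2 at both harvests and LINC02525 at the final harvest. These passed the filter on low counts only through the WT, so their calls do not stand as tests.
FOXC1, a forkhead transcription factor that lies past the 3′ end of GMDS, had 72.9, 60.7 and 74.5 CPM in the initial WT against 9.08, 11.0 and 10.6 in the initial KO (log2 fold change -2.76, SE 0.129, adjusted p = 3.23e-10, edgeR). At the final harvest its means were 72.9 ± 10.2 and 8.35 ± 1.06 CPM (log2 fold change -3.12, SE 0.132, adjusted p = 6.55e-11, edgeR). FOXC1 was thus separated between genotypes in every library but remained well above the floor. RIPK1, a kinase of cell death signalling on the GMDS-DT side, had 53.5 ± 1.45 CPM in the initial WT and 23.5 ± 0.924 in the initial KO, a log2 fold change of -1.19 (SE 0.074). NQO2, a quinone reductase, fell by 1.49 on the log2 scale initially and by 1.57 finally. PSMG4, a proteasome assembly chaperone near the edge of the window, fell by 0.72 and by 0.82. FOXQ1 was low throughout: it had 2.03 ± 0.456 CPM in the initial WT and 0.118 ± 0.0762 in the initial KO, and the final WT was already at 0.27 ± 0.141. Its initial fold change was -4.07 on the log2 scale, and at the final harvest the bound was at least 3.57-fold lower. EXOC2, on the minus strand and named after its values were seen, is outside that count by its lower coordinate although it is transcribed from a point inside the window, and it stood at -1.18 initially and -1.11 finally. The neighbours that did not pass were ENSG00000272277 and LINC02525 at the initial harvest and ENSG00000272277 and LINC01600 at the final harvest.

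**Figure D1:**
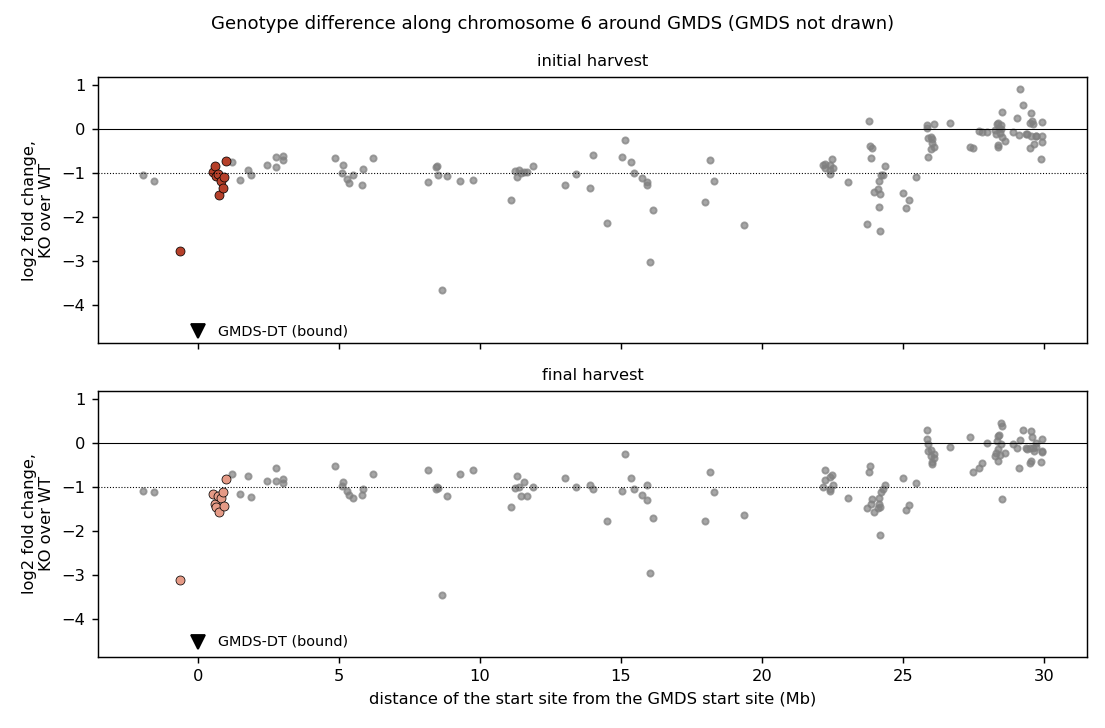
Log2 fold change of KO over WT (y axis) for genes on chromosome 6 with a mean of at least 2 CPM, by distance of the start site from the GMDS start in Mb (x axis, up to 30 Mb), at each harvest. GMDS is not drawn, and the triangle for GMDS-DT is its bound from the floor of 3 counts. Points lie around the dotted line at -1 until about 25 Mb and nearer 0 past it, and FOXC1 is at -2.76 initially and -3.12 finally.

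The lower levels went on well past that window, along the arm of chromosome 6 that holds GMDS. In steps of 5 Mb from the GMDS start, the 19 plotted genes of the nearest step had a median log2 fold change of -0.92 initially and -1.11 finally, and all 19 lay below 0 at both harvests. The next 3 steps had medians from -1.18 to -0.99 initially and from -1.12 to -0.999 finally. Between 20 and 25 Mb the median over 23 genes was -0.94 initially and -1.09 finally. The 53 genes from 25 to 30 Mb had medians of -0.10 and -0.16. The 3 plotted genes on the other side of GMDS had medians of -1.18 and -1.11. The depth varied along this stretch. DEK stood at -3.03 and -2.96, and SYCP2L, named after its values were seen, at -3.65 and -3.46. FOXC1 stood at -2.76 and -3.12.

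The same 1 Mb window around each of the other 9 members gave medians between -0.18 (FUT4) and 0.46 (FPGT, with 5 genes) at the initial harvest. The final medians lay between -0.06 (SLC35C1) and 0.53 (FPGT). Around POFUT2, 10 of 43 tested genes were called higher and 2 lower initially, and 7 higher and 0 lower finally, with medians of 0.23 and 0.20. For FUT8, which was lower in the KO, 1 of 19 neighbours was called lower and 2 higher at the initial harvest, with a median of -0.12. At the later harvest 2 of these were called lower and 4 higher, with a median of 0.02. For comparison, 8.55% of all genes tested were called higher and 11.3% lower initially, and 8.38% higher and 10.2% lower finally.

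By level per length, the order of the members in the initial WT was led by POFUT1, with 19.4 ± 0.608 CPM per kb of exon. SLC35C1 followed with 11.3 ± 1.21, then POFUT2 with 9.05 ± 0.642, FUT8 with 8.37 ± 0.710 and GFUS with 7.87 ± 0.624 CPM per kb. FCSK had 4.98 ± 0.353, FUT11 4.94 ± 0.697 and GMDS 4.05 ± 0.416, above FUT4 with 2.66 ± 0.340 and FPGT with 1.38 ± 0.254 CPM per kb. The libraries of POFUT2 and FUT8, FUT8 and GFUS, FCSK and FUT11, and FUT11 and GMDS overlapped, so those neighbours in the order were not separated by their spread. In the KO GMDS moved from the eighth place to the last, at 0.00202 ± 0.00349 CPM per kb initially and 0.00398 ± 0.00689 finally.

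**Figure D2:**
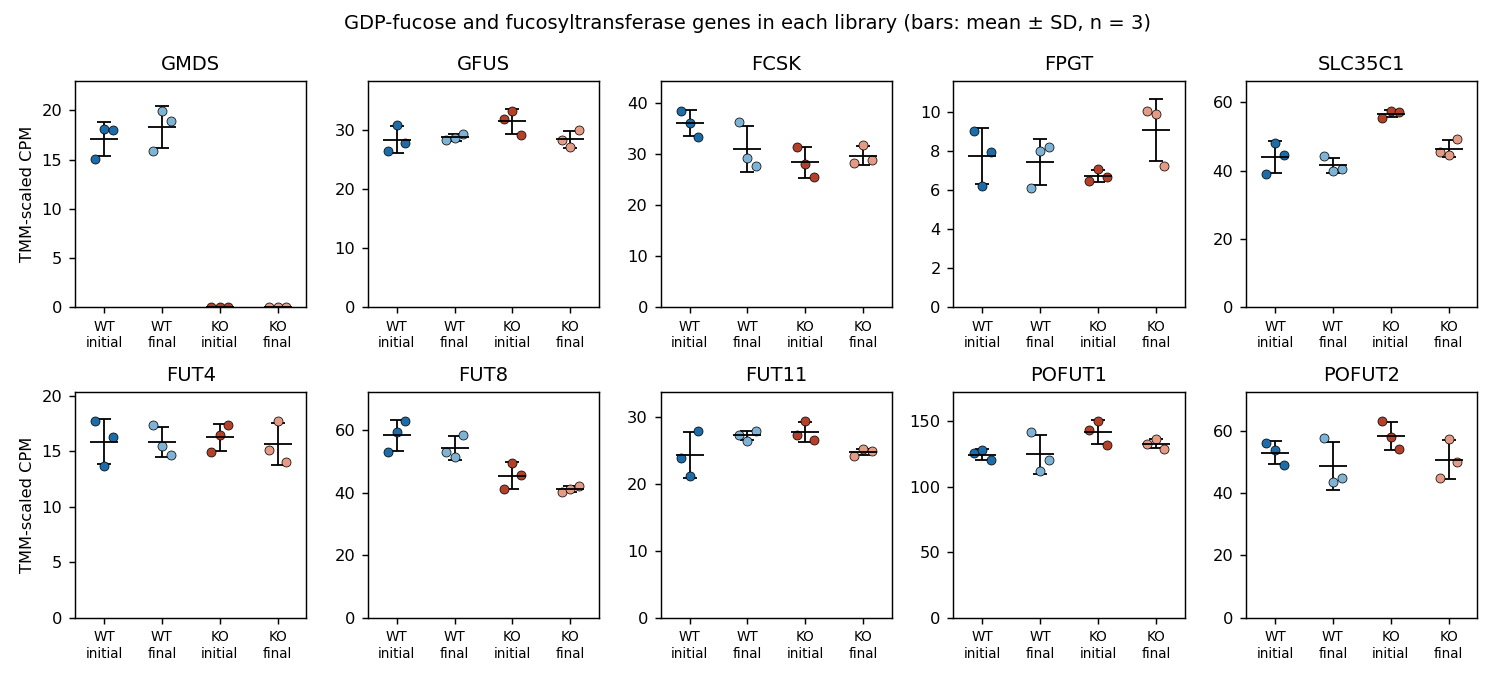
TMM-scaled CPM (y axis, from 0) of each of the 10 members in every library (points), by group (x axis: WT and KO at the initial and final harvest), with bars for mean ± SD of 3 libraries. GMDS is near 0 in all KO libraries, FUT8 is lower and SLC35C1 higher in the KO at the initial harvest, and the y axes differ between genes.

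Besides GMDS, few members differed between genotypes, and by far less. At the initial harvest 3 of 9 passed the test (19.9% of all genes tested did, 8.55% upward and 11.3% downward): SLC35C1 rose, and FCSK and FUT8 fell. FUT8 alone passed at the final harvest, 1 of 9 against 18.5% of all genes tested (8.38% upward, 10.2% downward). On the average over both harvests 2 of 9 passed, SLC35C1 higher and FUT8 lower, against 30.1% of all genes tested (14% upward, 16.1% downward). The median log2 fold change of the 9 was 0.14 initially and -0.02 finally, and the median over all genes tested was 0.00. The 9 ranged from -0.36 to 0.37 initially and from -0.40 to 0.29 finally. The libraries of the genotypes did not overlap for 4 of 9 initially and 3 of 9 finally, compared with 35.5% and 33.1% of all genes tested. A test against a 1.5-fold difference could call none of the 9 in these comparisons, since all their differences were smaller than that. With 9 genes these counts lie near the background shares, and the 9 were chosen with results of these data in view.

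GFUS (ENSG00000104522.16, chromosome 8, 143612618 to 143618048), the epimerase-reductase that finishes the de novo route after GMDS, had 28.4 ± 2.25 CPM in the initial WT, 28.7 ± 0.540 in the final WT, 31.5 ± 2.08 in the initial KO and 28.4 ± 1.44 in the final KO. The ranges overlapped at both harvests, with log2 fold changes of 0.15 (SE 0.085, adjusted p = 0.245, edgeR) and -0.02 (adjusted p = 0.928). The next enzyme after GMDS thus showed no difference larger than the spread between libraries.

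The salvage enzymes were present in both genotypes. FCSK (ENSG00000157353.17, chromosome 16, 70454595 to 70480274), the fucose kinase, had 38.5, 36.1 and 33.4 CPM in the initial WT and 31.4, 28.1 and 25.5 in the initial KO, with no overlap. Its initial log2 fold change was -0.35 (SE 0.109, adjusted p = 0.0342, edgeR). At the final harvest it had 36.2, 29.2 and 27.6 CPM in the WT and 28.3, 31.8 and 28.9 in the KO, which overlapped (log2 fold change -0.07, adjusted p = 0.745, edgeR). The initial call did not hold with upper-quartile scaling (adjusted p = 0.0568, edgeR), nor without initial WT replicate 1 (0.0994), initial KO replicate 2 (0.104) or initial KO replicate 3 (0.154). FPGT (ENSG00000254685.8, chromosome 1, 74198238 to 74234086), which turns fucose-1-phosphate into GDP-fucose, had the lowest level per length of the members in the WT. It had 7.74 ± 1.43 CPM in the initial WT, 7.44 ± 1.16 in the final WT, 6.74 ± 0.300 in the initial KO and 9.08 ± 1.58 in the final KO. Neither genotype difference passed (-0.20, adjusted p = 0.42, and 0.29, adjusted p = 0.24, edgeR). FPGT starts beside the readthrough gene FPGT-TNNI3K on the same strand, so the division of reads between them is uncertain.

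SLC35C1 (ENSG00000181830.9, chromosome 11, 45804072 to 45813016), the Golgi GDP-fucose transporter, rose in the KO at the initial harvest. It had 38.9, 48.2 and 44.5 CPM in the initial WT and 55.5, 57.6 and 57.1 in the initial KO. Every KO library lay above every WT library, with a log2 fold change of 0.37 (SE 0.086, adjusted p = 0.00561, edgeR). At the final harvest the WT had 44.2, 39.9 and 40.5 CPM and the KO 45.6, 44.6 and 49.2. The ranges again did not overlap, but the difference of 0.16 did not pass (SE 0.086, adjusted p = 0.229, edgeR). The change of the genotype difference between harvests was -0.21 (SE 0.122) and did not pass either (adjusted p = 0.517, edgeR), so the harvests were not shown to differ. Averaged over both harvests the difference was 0.27 (SE 0.061, adjusted p = 0.00323, edgeR).

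FUT8 (ENSG00000033170.17, chromosome 14, 65410592 to 65744121) attaches the core fucose of N-glycans in α1,6 linkage, and of the 9 members tested between genotypes it alone passed at both harvests. It had 53.0, 59.3 and 62.8 CPM in the initial WT and 41.2, 49.6 and 45.6 in the initial KO. Finally it had 53.0, 51.3 and 58.4 CPM in the WT and 40.3, 41.2 and 42.2 in the KO. The highest KO library thus stayed under the lowest WT library. FUT8 fell by 0.36 on the log2 scale initially (SE 0.089, adjusted p = 0.00878, edgeR) and by 0.40 finally (SE 0.09, adjusted p = 0.00469, edgeR). The average was -0.38 (SE 0.063, adjusted p = 0.000228, edgeR). The initial call did not hold without initial WT replicate 3 (log2 fold change -0.31, adjusted p = 0.0547, edgeR) or without initial KO replicate 1 (-0.29, 0.0619). Antisense FUT8-AS1 lies within the gene and had at most 12 counts in a library.

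**Figure D3:**
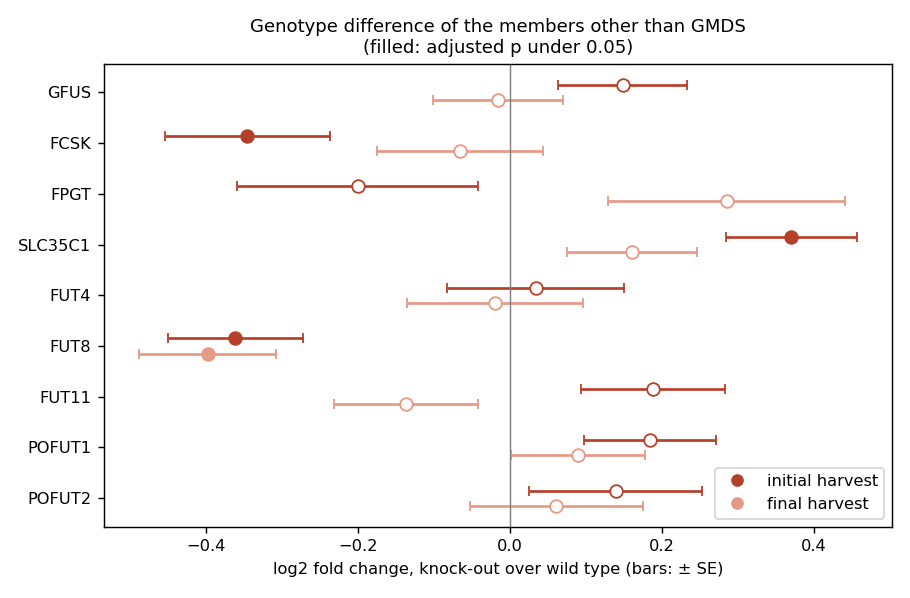
Log2 fold change of KO over WT (x axis, bars ± SE) of the 9 members other than GMDS (y axis), at the initial and final harvest, with filled points for adjusted p under 0.05 in edgeR's quasi-likelihood test. FUT8 is at -0.36 initially and -0.40 finally, SLC35C1 is at 0.37 and 0.16, and FCSK at -0.35 initially is the remaining filled point.

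The remaining FUT members, FUT4 and FUT11, did not pass. FUT4 (ENSG00000196371.4, chromosome 11, 94543921 to 94549895) makes the Lewis x structure by α1,3 fucosylation, and it had 15.9 ± 2.03, 15.8 ± 1.39, 16.3 ± 1.22 and 15.6 ± 1.90 CPM in the initial WT, final WT, initial KO and final KO. Its ranges overlapped at both harvests (log2 fold changes 0.03, adjusted p = 0.877, and -0.02, adjusted p = 0.933, edgeR), and it lies inside PIWIL4 on the same strand, so reads shared with that gene are uncertain. FUT11 (ENSG00000196968.11, chromosome 10, 73772276 to 73780251), a member of the same family by sequence, had 24.3 ± 3.43, 27.3 ± 0.722, 27.7 ± 1.49 and 24.8 ± 0.509 CPM in that order of groups. Its differences were 0.19 (adjusted p = 0.187) and -0.14 (adjusted p = 0.37, edgeR), and the final ranges did not overlap.

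POFUT1 and POFUT2, O-fucosyltransferases of the endoplasmic reticulum, were expressed in all groups. POFUT1 (ENSG00000101346.14, chromosome 20, 32207880 to 32238658), which fucosylates EGF-like repeats such as those of Notch receptors, had 126, 128 and 120 CPM in the initial WT and 143, 150 and 132 in the initial KO. These ranges did not overlap, and the difference of 0.18 (SE 0.087) did not pass (adjusted p = 0.159, edgeR). The final means were 125 ± 15.1 CPM in the WT and 133 ± 3.52 in the KO, and the ranges overlapped (0.09, adjusted p = 0.545, edgeR). POFUT2 (ENSG00000186866.17, chromosome 21, 45263928 to 45287898), which fucosylates thrombospondin repeats, had 53.1 ± 3.77 CPM in the initial WT, 48.7 ± 7.80 in the final WT, 58.5 ± 4.48 in the initial KO and 50.8 ± 6.16 in the final KO. Its ranges overlapped at both harvests (0.14, adjusted p = 0.435, and 0.06, adjusted p = 0.772, edgeR).

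No member passed the test of culture time. In the WT 0 of 10 members passed (6.47% of all genes tested did), none had an unadjusted p under 0.05, and DESeq2 also called 0. Their log2 fold changes ran from -0.22 (FCSK) to 0.16 (FUT11), and the smallest adjusted p was 0.285 (edgeR). The ranges of the harvests overlapped for all 10, while 22.2% of all genes tested had ranges that did not overlap. In the KO 0 of the 9 others passed (1.48% of all genes tested did), while FPGT and SLC35C1 had an unadjusted p under 0.05. Ranges did not overlap for 3 of 9 (23.2% of all genes tested). SLC35C1 went from 56.7 ± 1.09 to 46.4 ± 2.41 CPM with no overlap, a log2 fold change of -0.29 (SE 0.086, adjusted p = 0.115, edgeR). That difference passed when the KO libraries were fitted alone (adjusted p = 0.0366, edgeR) and narrowly in DESeq2 (adjusted p = 0.0498), which called 1 of the 9. The interaction of genotype and time, the change of the genotype difference between harvests, was called for 0 of 9 members (1.28% of all genes tested), also by DESeq2. FPGT and FUT11 had an unadjusted p under 0.05 there (smallest adjusted p = 0.324, edgeR).

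Wider gene lists around fucosylation were counted in the same fit. Over all genes tested, 8.55% were called higher and 11.3% lower initially (19.9% in all), and 8.38% higher and 10.2% lower finally (18.5% in all). Of the GDP-fucose supply and transport list, the tested genes other than GMDS were 8, of which 1 was called higher and 1 lower initially (SLC35C1 and FCSK; 19.9% of all genes tested were called) and 0 finally (18.5%), where none had an unadjusted p under 0.05 and DESeq2 called 0. The listed genes that are no members did not pass: SLC35C2, a related Golgi carrier, differed by 0.05 and 0.11, FUOM, the fucose mutarotase, by 0.02 and -0.04, and the lysosomal fucosidase FUCA1 by -0.01 and -0.05. The secreted fucosidase FUCA2 differed by 0.19 and -0.03. The list's median was 0.03 initially and -0.02 finally.

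Among 14 fucosyltransferase genes, 10 were tested and 1 was called higher and 3 lower initially, 0 higher and 2 lower finally (medians 0.05 and -0.05). That is 4 of 10 and 2 of 10 called, beside 19.9% and 18.5% of all genes tested. FUT5, FUT6, FUT7 and FUT9 did not pass the filter, with at most 8 counts in a library. FUT3, the α1,3/4 enzyme that makes Lewis a and b antigens, fell from 3.02 ± 0.214 to 0.799 ± 0.323 CPM initially (log2 fold change -1.91, SE 0.219, adjusted p = 9.68e-06, edgeR) and from 2.17 ± 0.301 to 0.901 ± 0.120 finally (-1.27, SE 0.222, adjusted p = 0.000661, edgeR). FUT3 shares much sequence with FUT5 and FUT6, so reads between them are uncertain. FUT1, which makes the H antigen, had 33.5 ± 0.340 CPM in the initial WT and 26.2 ± 1.86 in the initial KO (-0.36, adjusted p = 0.00457, edgeR). It also fell with culture in the WT, to 24.1 ± 1.49 CPM (-0.47, SE 0.081, adjusted p = 0.00182, edgeR), and in the KO, to 20.5 ± 0.220 (-0.35, adjusted p = 0.0384, edgeR). The latter call was lost in 11 of 19 alternative settings, and the final genotype difference of FUT1 was -0.24 (adjusted p = 0.0537). FUT10 was higher initially by 0.22 (adjusted p = 0.0466, edgeR), a call lost in 14 of 19 alternatives, and stood at 0.15 finally (adjusted p = 0.179).

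**Figure D4:**
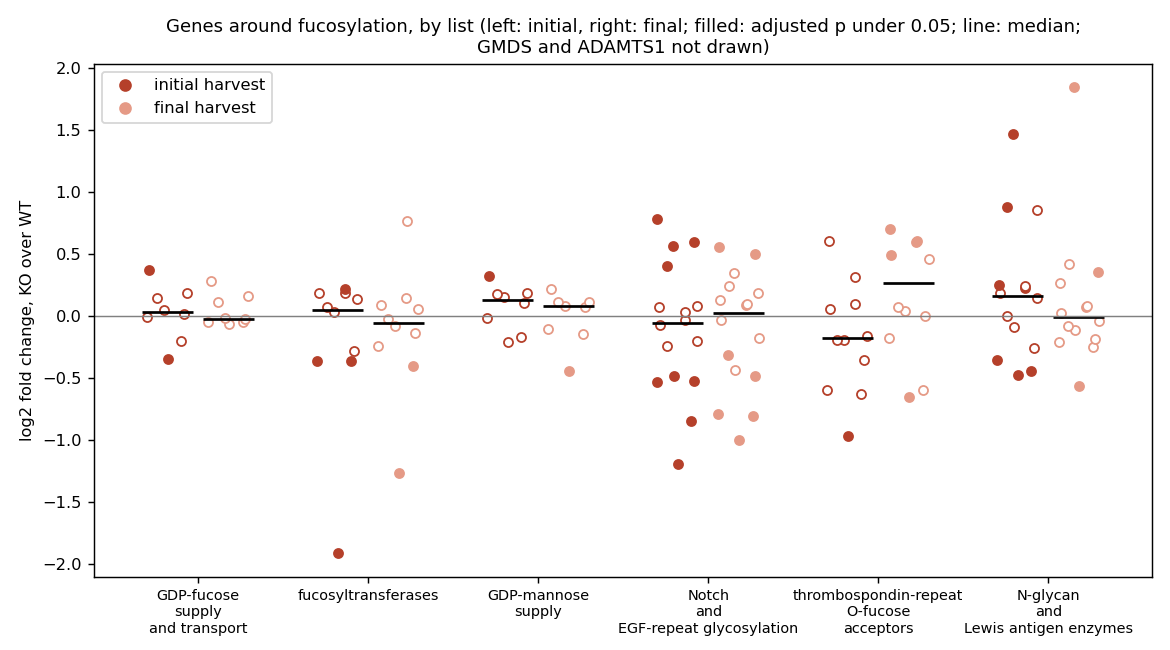
Log2 fold change of KO over WT (y axis) of each tested gene in 6 lists around fucosylation (x axis), with the initial harvest at left and the final at right in each list, filled points for adjusted p under 0.05 and a line at the list median. GMDS and ADAMTS1, which have a group at the floor, are not drawn, and the medians include ADAMTS1. The list medians lie between -0.17 and 0.27, FUT3 is the lowest fucosyltransferase at -1.91 initially, and B3GALT5 is the highest N-glycan and Lewis enzyme at 1.47 initially and 1.85 finally.

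GDP-mannose, which GMDS uses, is made by 8 listed genes from hexokinases to GMPPB. Of these, 1 was called higher and 0 lower initially (HK2), and 0 higher and 1 lower finally (PMM1), with medians of 0.13 and 0.08. At 1 of 8 each time, this does not exceed the 19.9% and 18.5% of all genes tested. HK2, a hexokinase, rose from 71.8 ± 3.17 to 89.7 ± 6.01 CPM initially (0.32, SE 0.082, adjusted p = 0.011, edgeR), a call lost without initial WT replicate 3 (0.0567) or initial KO replicate 2 (0.0741). PMM1, a phosphomannomutase, fell from 25.8 ± 1.89 to 19.0 ± 1.68 CPM finally (-0.44, SE 0.102, adjusted p = 0.00542, edgeR). GMPPB, which makes GDP-mannose itself, differed by 0.19 and 0.22 and passed on the average only (0.20, adjusted p = 0.0437, edgeR). GMPPA, its regulatory relative, fell with culture in the WT by 0.28 (adjusted p = 0.0273, edgeR), a call lost in 8 of 19 alternatives.

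The next list held the Notch receptors, their ligands, the enzymes that act on the same EGF-like repeats as POFUT1, and the Notch target genes HES1 and HEY1. It had calls in both directions, and HES1 and HEY1 were among those called lower at both harvests. Of 16 tested, 4 were higher and 5 lower initially and 2 higher and 5 lower finally (medians -0.05 and 0.03). That is 9 of 16 and 7 of 16 called, beside 19.9% and 18.5% of all genes tested. NOTCH1 had 103 ± 8.38 CPM in the initial WT and 156 ± 13.5 in the initial KO (0.60, SE 0.114, adjusted p = 0.00129, edgeR) and differed by 0.56 finally. NOTCH3 went the other way, from 147 ± 19.6 to 82.0 ± 8.87 CPM initially (-0.85, SE 0.125, adjusted p = 0.000132, edgeR), and differed by -0.79 finally. POGLUT3, an O-glucosyltransferase of EGF-like repeats, rose by 0.40 and by 0.51 (adjusted p = 0.0017 and 0.000228, edgeR). HES1, a Notch target gene, fell in the KO by 0.49 initially and by 0.48 finally, and by 0.66 with culture in the WT and 0.65 in the KO. Its group means were 45.5, 28.8, 32.5 and 20.7 CPM in the initial WT, final WT, initial KO and final KO.

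Among genes with thrombospondin repeats, which POFUT2 fucosylates, and the enzyme B3GLCT that extends that fucose, 12 of 17 were tested. Of these 1 was called higher and 1 lower initially, and 5 higher and 1 lower finally (medians -0.17 and 0.27). That is 2 of 12 and 6 of 12 called, beside 19.9% and 18.5% of all genes tested. ADAMTS1, a secreted protease, was at 0 or 1 count in every WT library and at 12 to 15 counts in the initial and 18 to 23 in the final KO, at least 4.54-fold and at least 6.61-fold higher. It is the 1 gene called higher initially and is among the 5 called higher finally. ADAMTS1 passed the filter on low counts only through the KO, so its calls do not stand as tests. CCN1, a matricellular protein, fell from 420 ± 55.7 to 215 ± 32.3 CPM initially (-0.97, SE 0.178, adjusted p = 0.00101, edgeR). Its final difference was -0.65 (adjusted p = 0.0165, edgeR), a call lost without final WT replicate 1 (-0.39, 0.0942) or final KO replicate 3 (-0.54, 0.074). ADAMTS17 differed by 0.06 initially and rose by 0.60 finally (SE 0.127, adjusted p = 0.00288, edgeR). With culture, CCN1, CCN2 and THBS1 were called lower in the WT, 3 of 12, beside 6.47% of all genes tested called in either direction. In the KO 0 of 12 were called with culture, beside 1.48%. CCN2 fell by 1.48 with culture in the WT (SE 0.183, adjusted p = 0.000115, edgeR), from 43.0 ± 6.60 to 15.4 ± 4.97 CPM. Its final genotype difference was 0.70 with overlapping ranges (adjusted p = 0.0123, edgeR), and that call was lost without final WT replicate 2 or 3 or final KO replicate 1.

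The last list held enzymes that build N-glycan branches and Lewis antigen backbones, the structures on which FUT8 and the Lewis enzymes act. It also held the sialyltransferases ST3GAL3, ST3GAL4, ST3GAL6 and ST6GAL1. This list gave 4 higher and 3 lower of 14 initially, and 2 higher and 1 lower finally (medians 0.17 and -0.01). That is 7 of 14 and 3 of 14 called, beside 19.9% and 18.5% of all genes tested, and the final share lies near that background. The initial count was not stable: with 1 library left out it ran from 3 to 7. ST6GAL1 was among the genes called lower initially. B3GALT5, which makes the type 1 chain that FUT3 fucosylates, rose from 5.37 ± 0.670 to 14.9 ± 0.910 CPM initially (1.47, SE 0.124, adjusted p = 3.61e-07, edgeR) and from 4.71 ± 0.422 to 17.0 ± 2.32 finally (1.85, SE 0.126, adjusted p = 2.44e-08, edgeR). MGAT4B, a branching enzyme, fell by 0.48 and by 0.56 (adjusted p = 0.00198 and 0.000495, edgeR). MGAT5, another branching enzyme, rose by 0.36 finally (adjusted p = 0.00314, edgeR). Its initial difference of 0.23 (adjusted p = 0.0461, edgeR) was lost in 13 of 19 alternatives. None of the 6 lists had an interaction call in edgeR. Unadjusted p-values under 0.05 were 1, 1, 1, 2, 4 and 2 for the interaction, in the order in which the lists are described, and DESeq2 called 1 gene there (CCN2).

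The genes whose pattern was most like that of GMDS over the 12 libraries, by Pearson correlation of log2(CPM + 1), were PXDN (0.9973), TTC22 (0.9967), RNF43 (0.9964), ZNF391 (0.9961) and DEK (0.9957). All are low in the clone, and the libraries share that split, so no p is given. PXDN, a peroxidase of the extracellular matrix, had 103 ± 7.52 CPM in the initial WT and 1.27 ± 0.0943 in the initial KO. DEK, a chromatin protein, had 127 ± 9.19 and 15.6 ± 1.12 CPM. RNF43, a ubiquitin ligase that restrains Wnt signalling, had 49.1 ± 0.857 and 8.07 ± 0.225 CPM. ZNF391, starting at 27374615, and DEK, ending at 18264548, lie on chromosome 6 as GMDS does, and the others lie on chromosomes 2, 1 and 17.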

How the data were processed

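The values are unnormalized read counts per gene, deposited by the authors and made with STAR and featureCounts (Subread) on hg38, per the submitters' processing notes. Tool versions, annotation release, strandedness and the treatment of multiply mapped reads are not given in the sources used here. The labels number 3 replicates per condition, and p-values measure the spread between these libraries. For the KO that is the spread within 1 clone. A spreadsheet had broken 1 gene over 5 lines, which were left out. The 5 Mb steps along chromosome 6 were chosen after seeing the data. Gene symbols were found for 60462 of 60648 genes. Of the versioned gene IDs, 37318 occur in GENCODE 29, all with the same coordinates on GRCh38.

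Genes were filtered with filterByExpr by group, which kept 18289, and scaled with TMM. R 4.3.3 with edgeR 4.0.16 and limma 3.58.1 fitted 1 robust quasi-likelihood model of the 12 libraries with a mean per group. The contrasts were knock-out against wild type at each harvest and on average, final against initial in each genotype, and the interaction. Genes were called at a Benjamini-Hochberg adjusted p under 0.05 over all genes tested. The fit was first tested on simulated data. A group whose libraries all held 3 counts or fewer was at the floor, and folds against it are bounds. Alternatives were other scalings, no filter, a replicate block, a test against 1.5-fold, a fit of the compared groups alone, DESeq2 1.42.0 and leaving out each library.

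The members and lists were chosen with earlier results of these data known. Named genes are the members; from each list, up to 3 called genes with the smallest adjusted p on the genotype average and 1 per time comparison; the 5 genes most like GMDS; and tested genes whose lower coordinate lies within 1 Mb of GMDS. The other genes named with values, MTHFD2, SLC35C2, FUOM, FUCA1, FUCA2, EXOC2 and SYCP2L, were named after their values were seen. Promoter sequence came from RefSeq (GRCh38.p14), where 8 of the 10 members had an entry. Same-numbered libraries did not deviate together: the correlations of their deviations ran from -0.358 to 0.238 over 18 pairs.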

Additional observations from a re-analysis of the deposited data

How the results depend on the processing

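With 3 libraries a group, differences of the size of those of FCSK or SLC35C1 lie near what the test can call, and for GMDS and GMDS-DT depth sets only the floor. Other scalings, no filter, the fit of the compared groups alone and DESeq2 kept the counts of called members in the genotype comparisons at 2 or 3 initially, 1 finally and 2 or 3 on average, while a test against 1.5-fold called 0 members in each. For time in the KO, 1 member (SLC35C1) passed in the fit of the compared groups alone and in DESeq2. The cause of these and the following shifts was not tested. Over the whole table, the 1.5-fold test called 643 genes initially (3635 without that threshold), 699 finally (3391), 868 on average (5499), 86 for time in the WT (1183), 16 for time in the KO (270) and 36 for the interaction (235). The compared groups alone gave 578 for time in the WT and 728 for time in the KO. No filter gave 484 for time in the KO and 423 for the interaction, and DESeq2 599 and 464.

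Leaving out 1 library at a time gave 2423 to 4615 genes initially, 627 to 1399 for time in the WT, 94 to 463 for time in the KO and 124 to 444 for the interaction. Called members ranged from 0 to 1 for time in the WT, where FCSK passed without final WT replicate 1. Differences that missed the threshold changed sign in places. With upper-quartile scaling the final differences of GFUS and FUT4 were 0.0111 and 0.0075. Without 1 library the final difference ran from -0.0625 to 0.0169 for GFUS, from -0.1494 to 0.0614 for FCSK, from -0.1212 to 0.0521 for FUT4 and from -0.0352 to 0.2015 for POFUT2. The initial difference ran from -0.0657 to 0.1209 for FUT4, from -0.7682 to 0.5167 for ENSG00000272277 and from -0.1009 to 0.5314 for LINC02525. The bound for GMDS ran from 218 to 239 initially and from 230 to 257 finally.

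The replicate block, fitted although the numbers share no stated origin, called 3 members initially, 1 finally, 3 on average and 0 in the other comparisons, where FCSK was added on average (adjusted p = 0.0351, edgeR). Under it 246 genes were called for time in the KO and 3539 for genotype initially.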
